A study of Rattus norvegicus with 16 samples.

Results

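The hairpin rno-mir-21 was followed through 16 small RNA libraries of the rat. It was chosen by its name, and it was known beforehand that its 5' arm, rno-mir-21-5p, has the most reads in spleen. This holds for 1 library per tissue and strain, while some of the deeper further livers held more reads. Its level by tissue is therefore a description here and carries no test. It is 1 of the 392 hairpins in the files, its 2 arms are 2 of 712 arms with reads, and its reads fall on 65 pairs of first and last position. In all, 863804 reads came from this hairpin, which is 5.68% of all reads. Of these, 863530 came from the 5' arm and 274 from the 3' arm.

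The libraries were made from adult males of 2 untreated inbred strains: BN-Lx, the brown Norway rat that carries the polydactyly-luxate syndrome, and SHR, the spontaneously hypertensive rat. They are founder strains of a panel of recombinant inbred rats. Brain (whole), heart, kidney, liver, spleen and testis were each sequenced once per strain, and by the methods of the study the 6 tissues of a strain came from 1 rat, so the six-tissue set compares 2 rats. Together with 4 further livers this gives 3 livers per strain, from separate rats, whose comparison addresses strain differences in the liver. The depth ran from 26880 reads (BN-Lx testis) to 3229461 (SHR liver 3). All libraries outside testis had at least 403453 reads. Marker miRNAs of each tissue, such as mir-122 for liver and mir-124, mir-9 and mir-128 for brain, summed to more in the libraries of that tissue than in any other library, by at least 4.68-fold in kidney and by up to 343-fold in liver.

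mir-21 is among the most abundant miRNAs of many cell types. A miRNA hairpin is cut by Drosha and Dicer, after which an arm is loaded into an Argonaute protein and finds its target messages mainly through its seed, bases 2 to 8. Known targets of mir-21-5p include the tumour suppressor Pdcd4. mir-21-5p is known to rise in tumours, in activated immune cells and in fibrosis of heart, kidney and liver. In the RefSeq gene table of the GRCr8 assembly its neighbour is Vmp1, which encodes a membrane protein that acts in autophagy.

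The sequences below show which bases the deposited read positions stand for. The 92-base hairpin lies on the minus strand at chr10:71902600-71902691 of GRCr8, and both mature arms as RefSeq gives them are in capitals. Position 1 is the first base of the hairpin, and the commonest first position of the reads, 18, is where RefSeq places the first base of mir-21-5p.
rno-mir-21 hairpin: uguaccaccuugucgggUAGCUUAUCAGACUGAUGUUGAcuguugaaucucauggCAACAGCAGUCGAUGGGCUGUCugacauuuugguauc
In the mature sequences the capitals mark the seed.
rno-miR-21-5p: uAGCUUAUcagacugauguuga
rno-miR-21-3p: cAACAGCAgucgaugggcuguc
The commonest 5' arm read runs from position 18 to 40, and the read to position 41 is longer still. Bases past the RefSeq end are in capitals.
5p read 18 to 40: uagcuuaucagacugauguugaC
5p read 18 to 41: uagcuuaucagacugauguugaCU
A 5' arm read that begins 1 base later, at position 19, has another seed, which is in capitals.
5p read 19 to 40: aGCUUAUCagacugauguugac
Among 724 mature rat miRNAs in RefSeq, the seed of mir-21-5p was found in 1, that of mir-21-3p in 1 and the shifted seed in 0. Neither arm thus shares its seed with another listed miRNA. No read of mir-21 was divided with another hairpin, since none of its deposited values is a fraction.

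mir-21-5p was highest in spleen and lowest in brain. Levels are given as reads per ocm, the outlier-corrected mean. The ocm is a library's mean read number over arms with a rat miRBase name, after the 3 most abundant of them are set aside. mir-21-5p is itself set aside in the spleens, BN-Lx liver 2 and the SHR livers, where it ranked 1 to 3, but not in every library. In spleen it had 106 reads per ocm in BN-Lx and 122.3 in SHR, which were 89188 and 66317 reads, and it ranked 1 among all arms of both libraries. It made up 12.1% of all reads in BN-Lx spleen (exact 95% interval 12.01 to 12.16%) and 13.3% in SHR spleen (13.2 to 13.4%). Both strains thus had close to the same level in this organ, which filters blood and holds many leukocytes.

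The 6 livers ranged from 29.4 to 118 reads per ocm. The BN-Lx livers 1 to 3 had 62.2, 102 and 29.4, the SHR livers 1 to 3 had 80.9, 118 and 100.4, and the rank of mir-21-5p within a liver lay between 2 and 6. The livers overlapped spleen, as SHR liver 2 lay above BN-Lx spleen. Kidney followed, BN-Lx with 25.5 and SHR with 24.1 reads per ocm, at rank 9 in both. Testis had 17.7 and 16.5, from only 549 and 571 reads. The strains differed by 1.06-fold in kidney and 1.07-fold in testis.

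**Figure D1:**
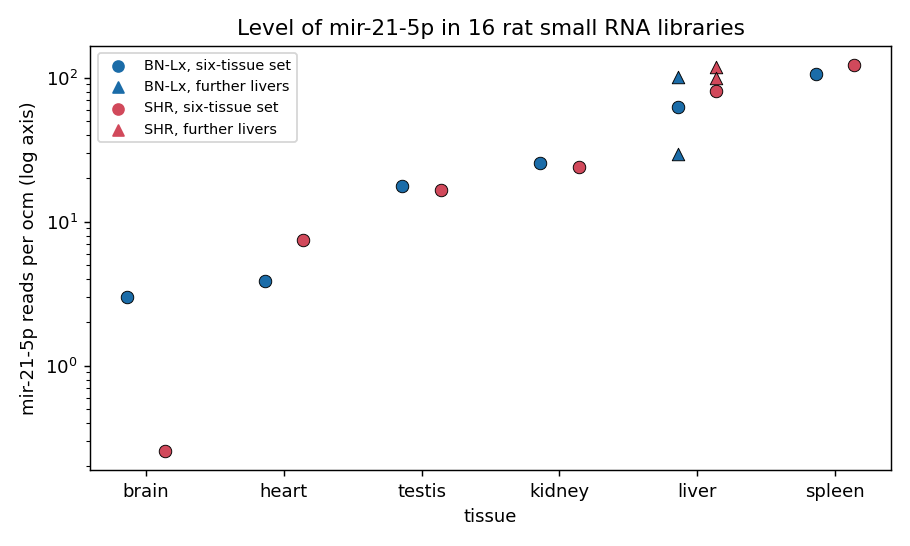
mir-21-5p reads per ocm (outlier-corrected mean) in 6 tissues, on a log axis. Each point is 1 library, blue for BN-Lx and red for SHR, with circles for the six-tissue set and triangles for the 4 further livers. Spleen stands at 106 and 122.3, the livers spread from 29.4 to 118 and brain spreads from 0.255 to 2.98.

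Heart had 3.87 reads per ocm in BN-Lx and 7.46 in SHR, and brain had 2.98 in BN-Lx and 0.255 in SHR. These are the tissues with the lowest levels, and those in which the strains differed most. Against the mean of the spleen libraries, the mean of liver in the six-tissue set was 1.59-fold lower, kidney 4.61-fold, testis 6.67-fold, heart 20.1-fold and brain 70.5-fold. For brain the ratio was 35.5 in BN-Lx alone and 479 in SHR alone. In the order brain, heart, testis, kidney, liver, spleen, the libraries of neighbouring tissues did not overlap within the six-tissue set. The gap between BN-Lx brain and BN-Lx heart (2.98 against 3.87) was however smaller than the difference between the strains in either tissue. With all 6 livers, the mean of liver, 82.2 ± 32.3 (SD, n = 6), lay within 1 SD of the spleen mean of 114.

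The scaling bears on both ends of this order. As percent of all reads, spleen lay above all 6 livers, whose highest was SHR liver 2 with 8.42%. After TMM scaling (RPM), however, SHR liver 2 and 3 (193542 and 163126) lay above the spleens of BN-Lx (137023) and SHR (117006), and SHR heart (8990) lay above the testes of BN-Lx (8168) and SHR (8897).

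Markers of leukocytes were read beside mir-21-5p because spleen is rich in these cells. Of 6 listed leukocyte hairpins 5 had reads: mir-142, mir-223 and mir-150, which mark blood cells, and mir-146a and mir-146b, which are induced by inflammatory signals. mir-155 was not analysed here. Summed per ocm, the leading arms of these hairpins reached 162 in BN-Lx spleen and 173 in SHR spleen, and from 4.87 to 20.7 in the other 14 libraries. mir-21-5p was 0.652 and 0.706 times this sum in the spleens, but 2.47 to 12.2 times the sum in the 6 livers and 2.87 and 4.94 times in the kidneys. The livers thus held between 29.4 and 118 reads per ocm of mir-21-5p at leukocyte sums of 8.39 to 19.4. Heart went the other way, with leukocyte sums of 20.7 and 20.2, the highest outside spleen, and mir-21-5p at 0.187 and 0.369 times the sum. The heart sums were mostly mir-150-5p, with 15.2 and 12.6 reads per ocm against 0.992 to 6.52 in the livers. The list did not move together, as mir-142-3p and mir-146a-5p were lower in both hearts than in any liver. mir-223-3p and mir-146b-5p overlapped between hearts and livers. In whole tissue, fewer cells of a type and less RNA per cell cannot be told apart, and the part of blood cells in these levels was not tested.

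**Figure D2:**
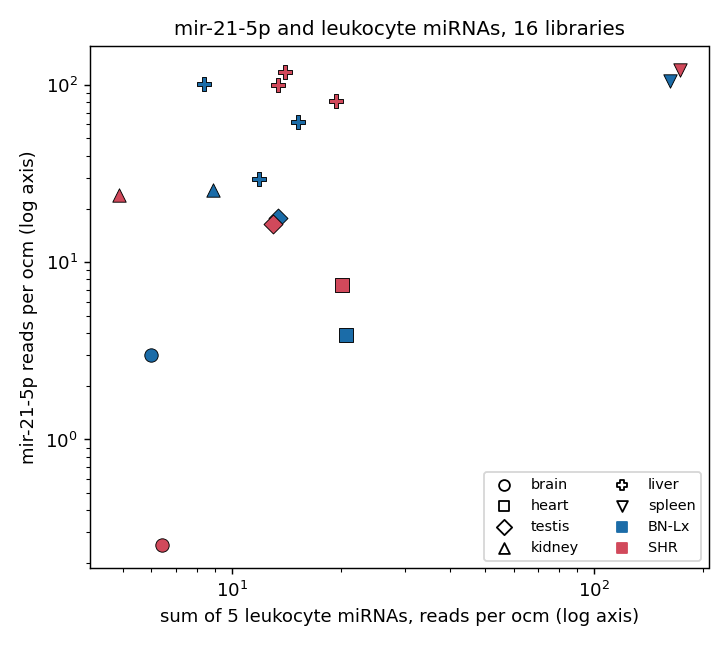
mir-21-5p reads per ocm against the summed reads per ocm of 5 leukocyte miRNAs, both on log axes, for 16 libraries. Symbols mark the tissue and colours the strain. Both measures reach their highest value in SHR spleen, while the livers (plus signs) have sums of 8.39 to 19.4 with 29.4 to 118 reads per ocm of mir-21-5p.

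The arms whose level followed that of mir-21-5p most closely were looked for among 100 arms with at least 10 reads in each of the 12 libraries of the six-tissue set. On log2 reads per ocm, Pearson's r was 0.88 for mir-19b-2-3p and mir-19b-1-3p (Spearman's rho 0.78 for both), whose reads are largely shared between identical copies. It was 0.87 for mir-339-5p (rho 0.80), 0.83 for mir-20a-5p (rho 0.79) and 0.81 for mir-19a-3p (rho 0.73). mir-19a, mir-19b-1 and mir-20a belong to the mir-17-92 cluster. Without the spleen libraries, r for these arms lay between 0.76 and 0.89 over 10 libraries. These correlations describe 12 points from 2 rats, which share libraries, depth and ocm. The levels of the named arms were far lower than those of mir-21-5p in spleen, such as 10.7 and 15.1 reads per ocm of mir-19b-2-3p.

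In mir-21-5p the livers of the strains overlapped. It had 64.5 ± 36.3 reads per ocm in BN-Lx livers and 99.9 ± 18.8 in SHR livers (SD, n = 3 each), and BN-Lx liver 2, with 102, lay above SHR liver 1 and 3. The exact two-sided permutation test gave p = 0.3, and 3 against 3 livers cannot give a p below 0.1. In edgeR's quasi-likelihood test over all arms the log2 ratio of SHR over BN-Lx was 0.64 with a standard error of 0.56 and a Benjamini-Hochberg adjusted p of 0.995. This test called 0 of 271 arms (0%), with 6 at an unadjusted p under 0.05. BN-Lx liver 3 weighed on the difference, since the log2 ratio was 0.29 without it and 1.21 without BN-Lx liver 2. With livers of the same number taken as pairs, SHR was higher in 3 of 3 pairs. For 3 pairs an exact sign-flip test cannot give a p below 0.25. The labels do not state a pairing, and BN-Lx liver 2 lay above SHR liver 3, so the 3 of 3 depends on this matching. With the replicate number as a block, which pairs the livers, the log2 ratio was 0.76 with an adjusted p of 0.674 in edgeR.

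The leukocyte and fibrosis lists, which share mir-146a and mir-146b, also gave 0 calls in edgeR in liver, over the 6 tissues and in the brain contrast. No arm at all was called in these fits (0 of 271, 0 of 457 and 0 of 500), so this is no result about the lists. Over the 6 tissues 8 leukocyte and 24 fibrosis arms were tested, and in the brain contrast 9 and 26. The leukocyte list had 7 arms tested in liver with a median log2 ratio of 0.64, beside -0.08 over all arms. These arms did not move together. They ranged from 1.42 for mir-146a-3p to -0.54 for mir-142-3p, with mir-142-5p at 0.85 and mir-223-3p at 0.23. The list of miRNAs known from fibrosis and inflammation, of whose 15 hairpins 14 were found, had 20 arms tested and a median of -0.01. Its members with the largest log2 ratios were both arms of mir-34a, a target of p53, at 2.02 (SE 0.55) for the 3' arm and 1.81 (SE 0.72) for the 5' arm, each with an adjusted p of 0.995 in edgeR. The window test that the paper describes, which does not use the spread between livers, was rerun here. In this rerun of the window test mir-34a-5p was called, at a log2 ratio of 1.94 and an adjusted p of 0.0325. The paper also reports this miRNA as higher in SHR livers by qRT-PCR on the same RNA samples. In edgeR mir-146a-5p, an inhibitor of inflammatory signalling, was at 0.69 (SE 0.39).

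Over the 6 tissues the level of mir-21-5p was higher in SHR in 3 tissues and lower in 3, and no shift common to the tissues was found. The ratio of SHR over BN-Lx was 1.93 in heart, 1.30 in liver, 1.16 in spleen, 0.945 in kidney, 0.932 in testis and 0.0856 in brain. The mean log2 ratio was -0.37 ± 1.60 (SD, n = 6 tissues), with p = 0.906 in an exact two-sided sign-flip test, whose smallest p is 0.0312. edgeR, with tissue as a term, gave a log2 ratio of -0.24 with a standard error of 0.43 and an adjusted p of 0.996, and called 0 of 457 arms (0%), with 8 at an unadjusted p under 0.05. Brain set the sign. Without both brain libraries the edgeR log2 ratio was 0.26, with an adjusted p of 0.912.

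In mir-21-5p the brain libraries differed more than those of any other tissue, with 4193 reads (BN-Lx) against 285 (SHR). This is 0.394% of all reads (exact 95% interval 0.382 to 0.406%) against 0.0331% (0.0294 to 0.0372%), and the rank of the arm was 53 against 168. Per ocm the level was 11.7-fold higher in BN-Lx brain. Of 425 arms with at least 10 reads in a brain library, 15 (3.53%) were at least 5-fold lower in SHR and 3 at least 5-fold higher. By this ratio mir-21-5p ranked 9. It was the arm with most reads among the leading 10, and of the 119 arms with at least 1000 reads in a brain library only 2, mir-21-5p and mir-200a-3p, were at least 5-fold lower in SHR.

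The arms that ranked above mir-21-5p in brain were mir-200b-3p with 455 reads for BN-Lx and 4 for SHR, mir-200a-3p with 1531 and 35, mir-429-5p with 112 and 0, mir-200b-5p with 53 and 0, mir-183-5p with 312 and 11, mir-183-3p with 45 and 2, mir-182-3p with 720 and 27, and mir-212-5p with 165 and 7. These names were chosen for their values. The leukocyte markers did not move with mir-21-5p, as their sum per ocm was 5.99 in the BN-Lx library and 6.41 in that of SHR. The erythroid mir-144 and mir-451, added after the brain values were seen, summed to 1.57 in BN-Lx and 3.12 in SHR. The brain markers mir-124, mir-9 and mir-128 summed to 63.1 in BN-Lx and 97.1 in SHR. They did not move together, as mir-124-1-3p had 5.64 and 16.5 reads per ocm, mir-128-1-3p 22.2 and 23.6, and mir-9-1-3p 1.32 and 0.958. With 1 brain per strain, strain, rat and library cannot be told apart.

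Whether the strain difference in brain differed from that in the other tissues was tested in edgeR on all 16 libraries together. Only the livers have replicates there, so they alone give the spread. For mir-21-5p the difference of log2 ratios was -3.95 with a standard error of 1.16. Its unadjusted p of 0.00844 ranked 2 of 500 arms, but the adjusted p in edgeR was 1.0, and 0 of 500 arms (0%) were called, with 7 at an unadjusted p under 0.05. The median over all arms in this contrast was -0.43. The brain difference of mir-21-5p therefore did not pass the test.

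The 3' arm, mir-21-3p, was rare in every library. It had 274 reads in all, 1 for every 3152 reads of the 5' arm and 0.0317% of the hairpin's reads. Of 206 hairpins with at least 1000 reads, 20 had a lower share on their minor arm, and the median share was 2.15%. mir-21 thus lay near the end of the range in its use of a single arm. Most reads of mir-21-3p ran from position 56 to 78 (182 reads, 66.4%), 1 base past the end that RefSeq gives. This read is shown with the base past the RefSeq end in capitals.
3p read 56 to 78: caacagcagucgaugggcugucU

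The livers held 229 of the 274 reads. Its share of the hairpin's reads was 0.0578, 0.0360 and 0.113% in BN-Lx livers 1 to 3, against 0.0355, 0.0190 and 0.0416% in SHR livers 1 to 3. SHR minus BN-Lx was -0.0368 percentage points with p = 0.2 in the exact two-sided permutation test (n = 3 each), and the groups overlapped. BN-Lx liver 3, with 0.113% (exact 95% interval 0.0743 to 0.164%), had the highest share, and the difference without it was -0.0149 points. In that liver the 5' arm was low, at 29.4 reads per ocm, while the 3' arm, at 0.0331 per ocm, lay between the 0.0225 and 0.0418 of the other livers' extremes. In edgeR the log2 ratio of mir-21-3p was -0.15 with a standard error of 0.50 and an adjusted p of 0.995.

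**Figure D3:**
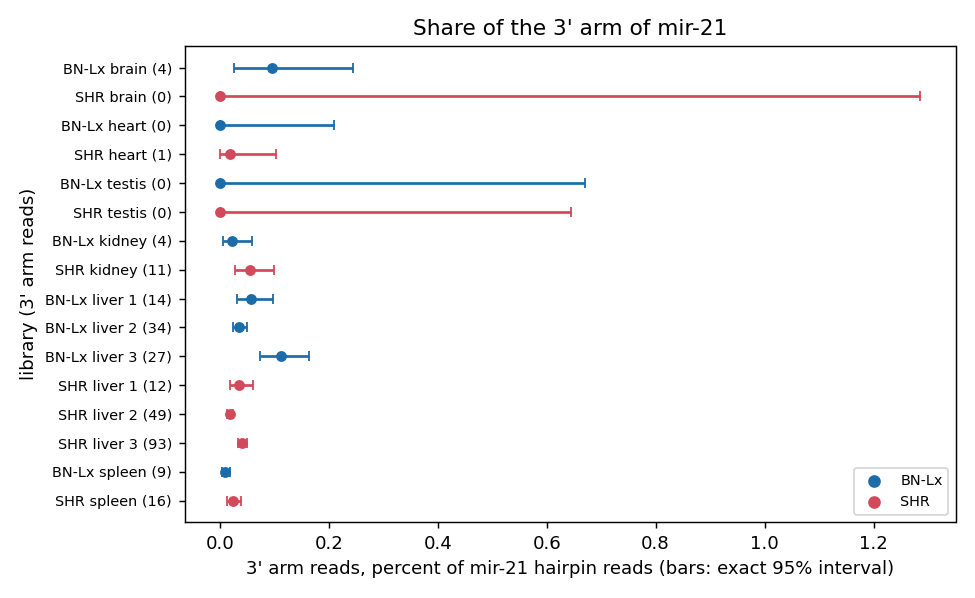
Reads of the 3' arm as percent of all mir-21 hairpin reads in each of 16 libraries, with exact 95% intervals, blue for BN-Lx and red for SHR. Numbers in brackets are 3' arm reads. The share is highest in BN-Lx liver 3 at 0.113%, and the libraries with 0 reads have wide intervals.

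Spleen, with the most mir-21-5p, held only 9 reads of the 3' arm in BN-Lx and 16 in SHR, which are 0.0101% (exact 95% interval 0.00461 to 0.0192%) and 0.0241% (0.0138 to 0.0392%). BN-Lx brain had 4 reads (0.0953%, interval 0.0260 to 0.244%), the kidneys 4 and 11, and SHR heart 1. In SHR brain, BN-Lx heart and both testes no read was counted, and 0 of 285 reads in SHR brain allows a share of up to 1.05% by the limit of 3 reads, or 1.29% by the exact 95% interval. The interval of BN-Lx brain lay above that of BN-Lx spleen and overlapped that of SHR spleen, while those of SHR brain, the hearts and the testes reached from at or near 0 past the spleen values. Since the reads of the 5' arm that chose the gene are the denominator, the share across tissues was not tested. Over the 6 tissues SHR minus BN-Lx was -0.00864 percentage points, with p = 0.812 in the exact sign-flip test. Intervals cover counting error only, since PCR copies were not told from separate molecules.

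The read ends of mir-21-5p were not used to choose the gene. In all 16 libraries the commonest read ran to position 40, 1 base past the RefSeq end, and gave a 23-base miRNA in place of 22 bases. Reads ending at 40 made up 75.0 to 94.6% of mir-21-5p, with a median of 90.6%. Those ending at 39, as RefSeq does, made up 2.33 to 21.2%, with a median of 5.94%, and those ending at 41 made up 0.668 to 7.97%. Only perfectly matching reads were deposited, so the C at position 40 matches the next base of the hairpin. How this base came to be on the reads was not tested. Among 166 arms whose commonest read starts where RefSeq does, 105 ended at the RefSeq end, 27 ended 1 base before it and 23 ended 1 base past it, so mir-21-5p shares its longer end with a minority of arms.

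**Figure D4:**
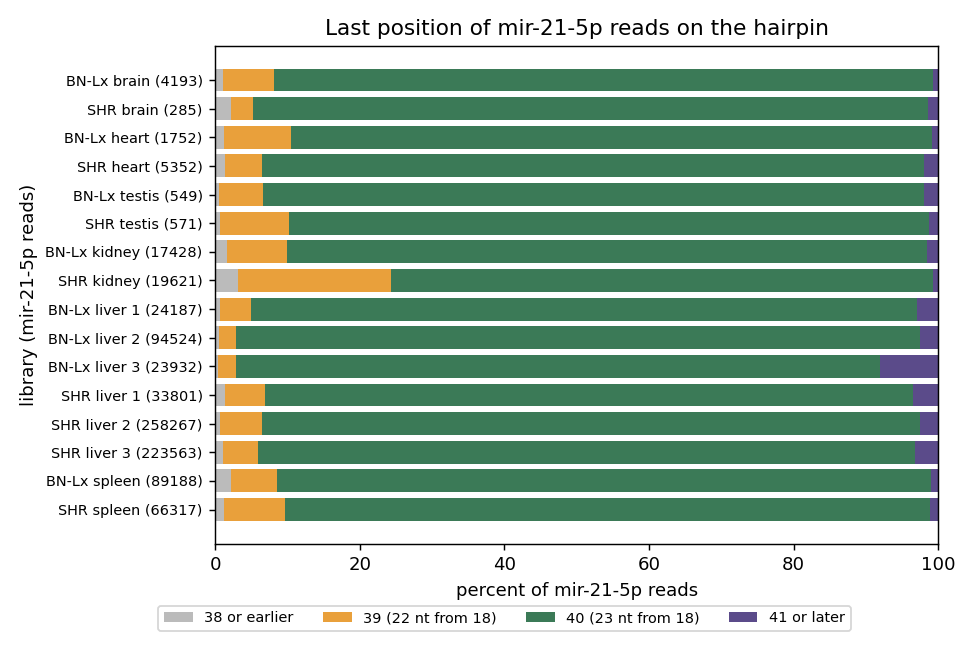
Last position on the hairpin of mir-21-5p reads, as percent of the reads of each of 16 libraries, with the number of reads in brackets. Position 39 is the RefSeq end and 40 is 1 base longer. SHR kidney has 21.2% at 39, and BN-Lx liver 3 has 7.97% at 41.

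SHR kidney stood apart. There 74.96% of reads ended at 40 (exact 95% interval 74.3 to 75.6%) and 21.2% at 39 (20.6 to 21.8%), while BN-Lx kidney had 88.6% at 40 and 8.31% at 39. In the other 15 libraries 2.33 to 9.46% ended at 39. The mean last position differed by -0.174 nt (SHR kidney minus BN-Lx kidney). This was not particular to mir-21-5p: of 50 arms with at least 50 reads in each of the 12 libraries, 36 ended earlier in SHR kidney, with a median difference of -0.0728 nt, and 12 had a larger shift to earlier ends than mir-21-5p.

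Averaged over the strains, the mean last position ran from 39.80 in kidney to 39.95 in liver. An exact permutation test over all ways of putting the 12 libraries into 6 pairs asked whether the libraries of a tissue lie closer to each other than other pairs do. For mir-21-5p this exact test gave p = 0.103, or 0.172 after Benjamini-Hochberg adjustment over 50 arms. At an adjusted p of 0.05 it called 0 of 50 arms (0%), with 21 at an unadjusted p under 0.05. This count depended on the reads used, as 18 of 49 arms were called with reads of 18 to 25 nt and 15 of 49 with positions of at least 2 reads, mir-21-5p not among them. Between the strains the mean last position differed by -0.0325 nt over the 6 tissues (SHR minus BN-Lx, exact sign-flip p = 0.5), and by -0.00406 nt without the kidneys.

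Among the livers the mean last position did not overlap between the strains. It was 39.962, 39.983 and 40.037 in BN-Lx livers 1 to 3, and 39.932, 39.949 and 39.954 in SHR livers 1 to 3. The difference was -0.0487 nt, and the exact permutation p of 0.1 is the smallest that 3 against 3 allows. Of 127 arms with at least 50 reads in each liver, 9 (7.09%) had all SHR livers below all BN-Lx livers and 1 (0.787%) the reverse. The median difference over these arms was -0.0588 nt, and 94 of them were lower in SHR. mir-21-5p thus moved by about as much as the other arms of these libraries. Reads ending at 39 made up 3.00 ± 1.13% of mir-21-5p in BN-Lx livers and 5.37 ± 0.55% in SHR livers (SD, n = 3 each), again with an exact p of 0.1.

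The first base of mir-21-5p, which sets the seed, varied little. Reads began at position 18 in 95.9 to 99.5% of cases, with a median of 98.0%, and at 19, with the shifted seed, in 0.485 to 3.88%. Both hearts were high, with 4.05% of reads off the main start in BN-Lx and 3.08% in SHR. BN-Lx and SHR testis were low at 0.546 and 1.40%, from 549 and 571 reads. The spleens lay close together at 1.97 and 1.99%, and the six-tissue livers at 2.15 and 1.96%. The brains had 2.89 and 2.11%, and the kidneys 2.66 and 1.84%.

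The same permutation test gave p = 0.00924 for the share of reads off the main start, and an adjusted p of 0.115 over 50 arms, so the difference between tissues did not pass the threshold. It called 2 of 50 arms (4%), with 13 at an unadjusted p under 0.05, and 6 of 49 with positions of at least 2 reads. Both called arms, mir-29b-1-3p and mir-29b-2-3p, named for their call, are identical copies that share reads. Without testis the p for mir-21-5p was 0.101. Among the further livers the share off the main start ranged from 0.545% in BN-Lx liver 2 to 2.64% in BN-Lx liver 3, beside tissue means of 0.974% in testis to 3.57% in heart. Between the strains it was 1.78 ± 1.10% in BN-Lx and 1.13 ± 0.73% in SHR livers (SD, n = 3 each), with an exact permutation p of 0.5.

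No difference in mir-21-5p was found between the livers of the six-tissue set and the 4 further livers. It had 71.5 reads per ocm on average in the former and 87.5 in the latter, with p = 0.6 in an exact permutation test of 2 against 4 livers, whose smallest p is 0.0667. Within the six-tissue set SHR liver was higher than BN-Lx liver (80.9 against 62.2), and in the further livers alone the edgeR log2 ratio of SHR over BN-Lx was 0.82 with an adjusted p of 0.681. Other arms, chosen here for their values, did differ between the sets. mir-29a-3p had 48.6 and 46.4 reads per ocm in the six-tissue livers, against 0.588 to 12.6 in the further livers. mir-122-5p had 320 and 387, against 561 to 674. The liver comparisons between strains pool both sets.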

How the data were processed

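Small RNA of 16 rat libraries was sequenced on SOLiD after selection of 15 to 40 nt, with more PCR cycles for the testes and the SHR liver than for the other tissues. The authors trimmed the linker, mapped reads with SHRiMP to hairpins of their own pipeline (RGSC3.4, miRBase 12) and kept perfect matches. They deposited an estimated count of reads, without normalization, for each first and last position on a hairpin, a read that fits several hairpins being divided evenly. The further livers also hold reads under 17 nt.

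Here reads were summed per arm. Reads whose midpoint lay over 20 nt from the commonest midpoint of the hairpin went to the other arm. For edgeR 4.0.16 (quasi-likelihood, TMM, filterByExpr, two-sided, adjusted p of 0.05) and DESeq2 1.42.0 the estimated counts were rounded. Terms were strain (liver), tissue and strain (12 libraries of the tissue set), or groups of tissue and strain (brain). Read ends, shares and single levels were compared by exact permutation of samples. Intervals are Clopper-Pearson at 95%, and a count of 0 allows 3 reads. Levels carry log2 (reads per ocm + 0.01) in the likeness search. Scripts ran in Python 3.11.15 (scipy 1.17.1, numpy 2.4.6, matplotlib 3.10.9, pandas 2.3.3) and R 4.3.3, and the tests were tested on simulated data.

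Sequences are those of RefSeq on GRCr8, and no coordinate was carried over from RGSC3.4. The rule for named miRNAs took both arms of mir-21, the 5 arms most like mir-21-5p, and members of the leukocyte and fibrosis lists. The members and lists were chosen with earlier results of these data known. The alternatives were another tool, scaling or filter, the study's window test, the replicate block, other read lengths, and libraries left out.

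Livers of the strains share replicate numbers in the labels. After removal of the group means, livers of the same number had correlations over 190 arms of 0.70, 0.54 and 0.28. The difference between the six-tissue livers and the further livers enters all of these values. They therefore cannot tell a pairing by number from that difference. The main liver tests did not pair the livers. Only the replicate block and the pairwise counts took the numbers as pairs. That is an assumption, since livers of different numbers were not compared in this way. Replicate 1 of each strain is the liver sequenced along with the other tissues. p-values of the liver tests, the window test apart, measure the spread between these rats and libraries only. The same holds for the brain contrast, whose spread comes from the livers. The tests over the tissues take organs of the same rat of each strain as units. Their p-values measure the spread between these organs and libraries and hold no spread between rats of a strain.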

Additional observations from a re-analysis of the deposited data

Results flagged for a closer look

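Among the 6 livers, 8 measures of mir-21 were searched for a library far from the rest. In BN-Lx liver 3, 7.97% of mir-21-5p reads ended at position 41, while the other 5 livers had between 2.57 and 3.42%, and the gap to the nearest was 0.842 of the whole range, above Dixon's limit of 0.625. Chance alone places about 1 in 20 such groups past this limit. The same liver had the lowest level of mir-21-5p (29.4 reads per ocm) and the highest share of the 3' arm (0.113%). What sets this library apart was not tested.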

How the results depend on the processing

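No alternative brought mir-21 past a threshold in a strain comparison, in the brain contrast or in the tests of read ends, where the main tests had not passed either. Called arms in the livers numbered 1 by DESeq2 (mir-463-5p) and 5 by the rerun of the window test, against 0 in edgeR, and mir-21 was in neither set. The 5 arms, all named for their call, were mir-34a-5p of the fibrosis list, mir-471-3p, mir-742-3p, mir-743a-3p and sblock27632-3p. The paper's own list of called arms shares only some of these and holds others. Why the lists differ was not tested. Directions turned in 3 results that had missed the threshold. The six-tissue log2 ratio of mir-21-5p was 0.15 with no tissue term and 0.26 without the brains. That of mir-21-3p in liver was 0.022 in the 4 further livers alone, and -0.54 to 0.044 with each liver left out in turn. The log2 form of the 3' arm share over 6 tissues was 0.39. Leaving out each liver gave log2 ratios of mir-21-5p of 0.29 to 1.21, differences of the mean last position of -0.0647 to -0.0272 nt and differences of the 3' arm share of -0.0533 to -0.0149 points. The replicate block, which pairs the livers, called 0 arms and changed no call, with a log2 ratio of -0.21 for mir-21-3p and an exact p of 0.25, the smallest that 3 pairs allow, for the last position and the arm share. Spleen over brain was 479 in SHR libraries alone and 35.5 in BN-Lx libraries alone, spleen over kidney 3.92 and over liver 2.13 by percent of all reads, and spleen over testis 14.9 by TMM. The cause of these changes was not tested. The settings added after seeing the data were the livers' set as a term (0.57 for mir-21-5p), the block without an expression filter (0.84), the brain contrast without BN-Lx liver 3 (-3.88) and the end tests without kidney (adjusted p of 0.273 for the last position by permutation). Over its alternatives the adjusted p of the share off the main start, by exact permutation, ranged from 0.0513 to 0.349. Across all arms the test of the last position called 18 of 49 with reads of 18 to 25 nt and 15 of 49 with positions of at least 2 reads, against 0 of 50. Testis, with 549 and 571 reads of mir-21-5p, limits what the end tests can show.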

Other observations

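A few reads came from outside the mature arms. On positions 1 to 17, which lie before the 5' arm, 2 reads were counted in BN-Lx liver 2 and 1 in SHR liver 2, out of 863804 reads of the hairpin, and 0 reads spanned the loop.

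Shorter 5' arm reads were scarce as well. Reads from position 18 to 35 and from 18 to 36 numbered 1043 and 1017, or 0.121 and 0.118% of mir-21-5p. Reads under 17 nt made up 0.0461% of all mir-21 reads.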
